A study of Mus musculus with 4 samples.

Results

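The comparison set the spinal cord of adrenalectomized mice against that of sham-operated mice at ZT22, late in the dark phase, with 1 array a side. Its members were all array probes that the scanner software flagged as well above background on both of these arrays, which left 25144 of 39429 probes (63.8%), or 16070 of the 23335 genes that a probe named unequivocally. A gene was read from the brightest of its kept probes. The study hybridized RNA of lumbar spinal slices (L4 to L5) from male ICR mice, an outbred stock, at day 7 of a partial ligation of the sciatic nerve (PSL), a model of neuropathic pain. Sham+PSL and ADX+PSL mice were each taken at ZT10 and at ZT22, which gave 4 groups of 1 array, and all of them carried the nerve injury. ADX stands for removal of both adrenal glands, after which the mice drank saline, and in the sham operation the glands were exposed and left in place. The mice were young, a few weeks old by the study's methods. The number of mice behind each RNA is not given in the sources used here, and ADX mice lacked every adrenal hormone, not corticosterone (CORT) alone. With 1 array a group no test between conditions can be had and none was made: a difference between 2 arrays holds the operation, the mice, the dissection and the labelling together.

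The adrenal cortex secretes CORT under the control of the pituitary and of the central clock, and in nocturnal rodents its level in blood climbs toward the dark phase and is low toward dawn. CORT enters cells and binds the glucocorticoid receptor, which moves to the nucleus and activates or represses genes through glucocorticoid response elements. Astrocytes, microglia, endothelial cells and meningeal fibroblasts of the spinal cord all carry the receptor. Well known genes that it induces are *Sgk1*, a serine/threonine kinase, *Fkbp5*, a chaperone that dampens the receptor, *Tsc22d3* (GILZ), *Per1* of the clock and the metallothioneins *Mt1* and *Mt2*, which bind zinc.

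Each value below is read by a 60-base probe, and for the genes the comparison turns on the first 30 bases of the probe are shown so that the measured transcript can be recognised. *Slc13a4* and *Ogn* had the lowest ratios among meningeal genes, *Msln* the largest bound, the haemoglobins and the histocompatibility genes set the high end together with *Gdpd3* and *Adck1*, and *Mt2* was the glucocorticoid-induced gene past the limits. The Serpina1 genes are near-identical copies, so for them the 30 bases are those around the run that 3 of their probes share, with the base at which they are not alike in capitals. Positions are those of the whole probe in mm9, as the deposited annotation of the probes gives them. Exons and untranslated regions were not annotated for this build here.
Slc13a4 probe, chr6:35217971-35218030, minus strand: gaggggagagatgtgccttgggttctttac
Ogn probe, chr13:49719549-49719608, plus strand: cattaaagcatctgtgaactgtaaggccac
Msln probe, chr17:25885569-25885628, minus strand: tgggtaccaggggtcattgccaaagtttga
Alkal2 probe, chr12:31578239-31578300, plus strand: ccataattcctttgcattttctatgttgct
Hbb-bt probe, chr7:110961105-110961164, minus strand: ttttctgctattgtctatgcacaaaggtta
Hba-a2 probe, chr11:32197245-32197304, plus strand: ttcttctctcccttgcacctgtacctcttg
H2-D1 probe, chr17:35403886-35403945, plus strand: cagttctctttacacaacattgtctgatgt
H2-Q7 probe, chr17:35580315-35580374, plus strand: tgcactgagtgacagacgatgtgttcatgt
Gdpd3 probe, chr7:133914520-133914693, plus strand: ctgtggatggatgaaccaactgtcggctac
Adck1 probe, chr12:89699931-89699990, plus strand: gtcacaggggcgtgtttaacttgtagggaa
Mt2 probe, chr8:96697371-96697430, plus strand: agaagcctagccttttttgtacaaccctga
Serpina1a probe, chr12:105091819-105091878, minus strand: Tgtcatccttccttctgaattgggttcctt
Serpina1c probe, chr12:105133165-105133224, minus strand: Tgtcatccttccttctgaattgggttcctt
Serpina1e probe, chr12:105185172-105185231, minus strand: Agtcatccttccttctgaattgggttcctt
The probes of *Serpina1a* and *Serpina1c* shared a run of 47 bases, so these genes cannot be told apart. Among the 5 haemoglobin probes no pair shared more than 7 bases, and among 6 probes of MHC class I genes no pair shared more than 15. Probes were set against each other only, not against the transcripts of like genes. How far a probe also reads a like gene was therefore not tested.

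Levels are normalized intensities on the linear scale in arbitrary units, and ratios are given as log2 of ADX+PSL over sham+PSL with the spot error of the scanner software, which covers the reading of the spots and nothing else. Well above background were between 65.1% and 70.1% of the probes of each array, and no spot was saturated. The sham+PSL array at ZT22 stood apart from the other 3 in red blood cell genes: the summed level of that marker list was 25700 there, against 97778 in ADX+PSL at the same time and 144616 (sham+PSL) and 103345 (ADX+PSL) at ZT10. The spinal cord identity of the samples was plain on both ZT22 arrays: all 19 neuronal, all 19 astrocyte and all 18 oligodendrocyte markers were kept, with median log2 ratios of 0.07, 0.04 and -0.14.

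Of the kept probes, 197 (0.783%) had a ratio of at least 2 with a Z-score of at least 2 and 253 (1.01%) a ratio of at most 0.5 with a Z-score of at most -2. Over genes these limits gave 101 higher genes (0.629%) and 181 lower genes (1.13%). Ratios past 1.62 already had a Z-score above 2, so the ratio decided every upward call. The median log2 ratio of all kept genes was 0.00, and that of the probes had an SD of 0.34, against a median spot error of 0.20. Of all kept genes 49.4% had a log2 ratio below 0. Past 4-fold lay 23 higher and 35 lower probes, and past 8-fold 7 and 6. Just inside the limits were *Zfp985* (ratio 2.001) and *Thbs1* (0.4998), and just outside were *Map3k21* (1.998) and *Akr1e1* (0.5004). The lower side held meningeal fibroblast and matrix genes, genes of arachnoid and mesothelial cells and genes of liver-type plasma proteins. The higher side held haemoglobins, single genes of the histocompatibility region, which also held lower ones, and genes of no common list.

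How the background was corrected set the size of many ratios, most of all of dim probes. Of 74 called genes among those followed through the alternatives, 54 stayed past 2-fold with normexp correction and 53 with the mean signal without correction, and the fold moved by over 1.5 times for 30 and 32. With the mean signal the log2 ratio of *Slc13a4* was -4.11, of *Ogn* -2.19, of *Mfap5* -1.73, of *Prx* -1.57, of *Adck1* 4.15 and of *Gdpd3* 2.91, all still past 2-fold. Short of 2-fold with that signal were *Foxc1* (-0.74), *Gjb2* (-0.97), *Col5a1* (-0.73), *Col8a2* (-0.61), *Loxl1* (-0.62), *Timp1* (-0.94), *Usp18* (-0.68), *Nlrc5* (-0.37), *C1ra* (-0.57), *Serping1* (-0.95), *C2* (-0.90), *Cd74* (-0.88), *Lyz2* (-0.95), *Ccl4* (-0.77), *Cox6a2* (-0.76), *Cnn1* (-0.41), *Ier2* (0.54), *Cyp11b1* (0.83), *Cyp2j7* (-0.87), *Gm765* (0.61) and *Gm9876* (0.90). With normexp all of these but *Lyz2* (-1.05) fell short as well, so these calls depend on how the background was corrected. Without normalization between arrays *Foxc1*, *Gjb2*, *Loxl1*, *Timp1*, *Usp18*, *Nlrc5*, *Serping1*, *C2*, *Cd74* and *Cnn1* fell short too, so these also lay close to the limit.

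**Figure D1:**
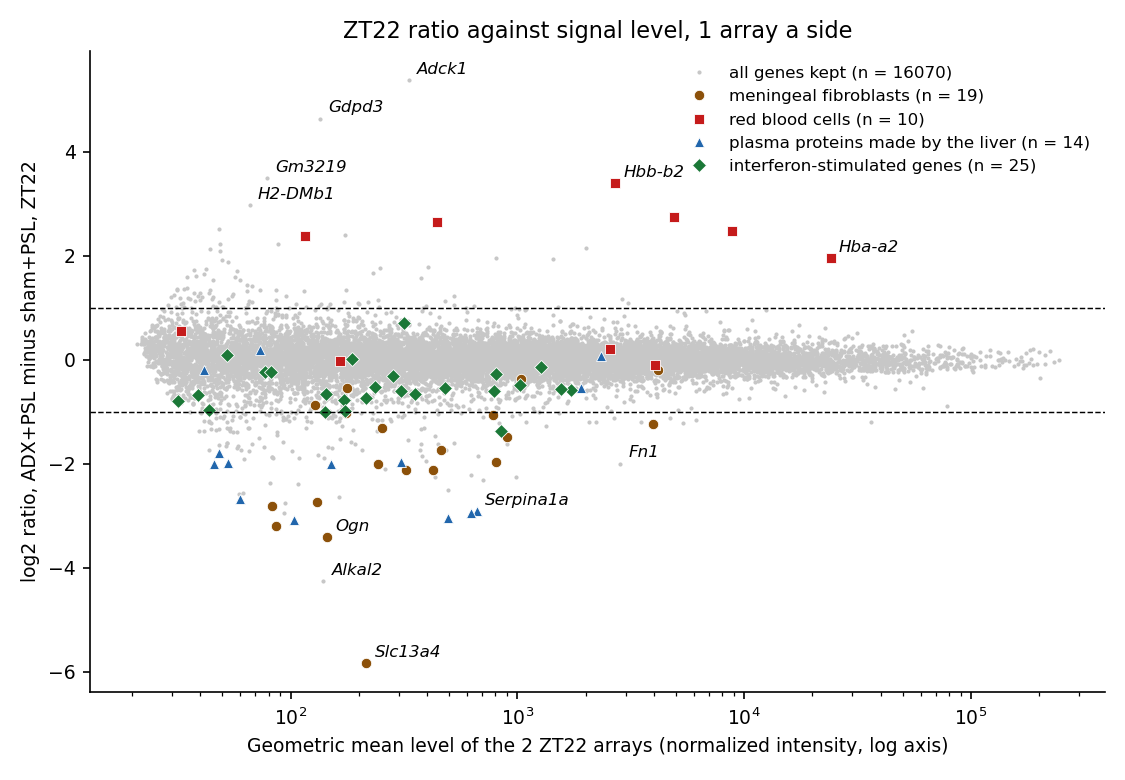
Log2 ratio of ADX+PSL over sham+PSL at ZT22 (vertical axis) against the geometric mean level of the 2 arrays (horizontal axis, log scale) for the 16070 kept genes in grey, with meningeal, red blood cell, liver-type plasma protein and interferon-stimulated genes as coloured symbols and dashed lines at a ratio of 2 and 0.5. The 19 meningeal fibroblast genes all lay below 0 down to -5.84 for *Slc13a4*, 6 of the 10 red blood cell genes lay between 1.95 and 3.39, and 22 of 25 interferon-stimulated genes lay below 0.

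Meningeal fibroblasts build the pia, arachnoid and dura that wrap the cord, and they secrete collagens and small proteoglycans. Of 26 genes of this list on the array 19 were kept, 15 of them were lower and none higher, where 1.13% of all genes were lower. All 19 had a log2 ratio below 0, with a median of -1.75 against 0.00 for all genes. *Mfap4*, *Mfap5* and *Pcolce* of this list were among the candidates that the study selected from these same arrays as lower after ADX. Their direction is no separate evidence. *Slc13a4*, a sulfate transporter of the leptomeninges, stood at 1633 in sham+PSL at ZT22 and at 28.5 in ADX+PSL. This 57.3-fold difference (log2 ratio -5.84 ± 0.32 spot error) was the lowest ratio of all kept genes. At ZT10 the same probe read 398.9 (sham+PSL) and 46.1 (ADX+PSL). Here both ADX+PSL arrays lay below both sham+PSL arrays, and the sham+PSL arrays also differed 4.09-fold from each other. *Ogn* (osteoglycin), a small leucine-rich proteoglycan, read 471.1 in sham+PSL and 44.1 in ADX+PSL at ZT22, which was 10.68-fold lower. *Mfap5*, a microfibril protein, read 260.9 and 28.4, which was 9.18-fold lower.

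Transporters and enzymes of the meninges followed the same order. *Aldh1a2*, which makes retinoic acid and marks arachnoid and pial fibroblasts, read 885.7 in sham+PSL and 202.8 in ADX+PSL. *Ranbp3l* read 218.2 and 31.1. The GABA and taurine transporter *Slc6a13* read 675.4 and 155.1, and *Slc22a6*, an organic anion transporter, 338.7 and 50.9. Of these, *Slc22a6* was high on the sham+PSL array at ZT22 alone: it read 50.7 and 51.8 on the ZT10 arrays. *Gjb2* (connexin 26; -1.06) and the transcription factor *Foxc1* (-1.03), which the meninges need to form, lay just past the limits. *Foxc2*, *Osr1* and *Igf2* of this list were well above background in sham+PSL and not in ADX+PSL at ZT22, each with a bound of at least 2-fold.

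Part of the collagen and matrix list was lower as well. *Col1a1* and *Col3a1*, the fibrillar collagens of fibroblasts, read 1574 and 950.2 in sham+PSL and 318.0 and 197.9 in ADX+PSL at ZT22, 4.95-fold and 4.80-fold lower. *Col1a2* (-1.13), *Col5a1* (-1.21), *Col8a2* (-1.26), the cross-linking enzyme *Loxl1* (-1.01) and the protease inhibitor *Timp1* (-1.10) also passed the limits. *Fn1* (fibronectin) read 5682 in sham+PSL and 1419 in ADX+PSL at ZT22, but 1790 and 1817 on the ZT10 arrays, so the sham+PSL array at ZT22 stood apart from all 3 others. In all, 8 of 28 kept genes of collagens and matrix were lower and none was higher, with a median of -0.32 at ZT22 and -0.46 at ZT10. Summed over the meningeal list, the level at ZT22 was 23216 with sham operation and 10389 after ADX, and 23789 and 10254 at ZT10. In bulk tissue fewer cells of a type and less RNA per cell cannot be told apart, and the share of meninges that came with each slice was not measured.

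Periaxin (*Prx*), a protein of myelinating Schwann cells in the nerve roots, read 246.6 and 36.3, 6.80-fold lower. The other 8 kept genes of the Schwann cell list did not pass the limits. They ranged from -0.73 for *Gldn* to 0.82 for *Sostdc1*, of which another probe read 0.07. Of the 9 kept genes 7 lay below 0, with a median of -0.11. *Dhh* (desert hedgehog) of this list was well above background in sham+PSL alone at ZT22, with 48.4 against 20.05 and a bound of at least 2-fold. Skeletal muscle genes, which mark muscle taken with the cord, did not move together at ZT22. Their median was -0.02 with 1 of 16 lower (*Cox6a2*, -1.10), against -0.88 with 7 lower at ZT10.

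A set of genes of arachnoid barrier cells and mesothelium, epithelium-like cells that line body and meningeal surfaces, was brightest on the sham+PSL array at ZT22, and several of its genes were well above background there alone. This list was put together after *Msln*, *Dapl1* and *Prg4* had been seen at the top of the bounds, so its direction is no separate evidence. *Msln* (mesothelin) read 799.1 in sham+PSL at ZT22 and between 3.64 and 5.76 on the other 3 arrays, none of them well above background. It was thus at least 36.0-fold lower in ADX+PSL, the largest bound of all genes. Here a bound sets the bright array against the higher of the dim probe's own level and the lowest level called well above background on the dim array, 22.2 for ADX+PSL and 18.4 for sham+PSL at ZT22. *Dapl1* read 651.4 against 10.6 (at least 29.4-fold) and *Cdh1*, the epithelial cadherin of the arachnoid barrier, 113.9 against 3.98 (at least 5.13-fold). Both were below background on the ZT10 arrays as well. *Prg4* (lubricin), *Wnt6*, *Anxa8* and the keratin *Krt19* had bounds of 18.7-fold, 11.96-fold, 7.46-fold and 3.78-fold. Of these, *Wnt6* and *Krt19* were also above background in sham+PSL at ZT10 (110.9 and 44.2), and *Krt19* (24.8) and *Prg4* (23.3) in ADX+PSL at ZT10. Of the 21 genes of the list, 8 were kept and 4 of these were lower (*Mslnl*, *Lrrn4cl*, *Dpp4* and *Crabp2*), 7 had a bound in the same direction, and none was higher. *Wt1* (-0.26), *Krt18* (0.20) and *Lrrn4* (-0.06) did not pass the limits, and the uroplakins *Upk1b* and *Upk3b* were below background on all 4 arrays. Other genes of the sham+PSL array at ZT22 alone were *Alkal2*, a ligand of the receptor kinases ALK and LTK, with 610.9 there and 19.8 to 31.8 elsewhere, *Aldh1a7* with 258.4 against 21.8 to 33.5, and the serotonin transporter *Slc6a4* with 145.6 against 17.8 to 24.2.

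Genes of plasma proteins that the liver secretes made up a second block on that array. *Serpina1a*, which encodes an α1-antitrypsin, read 1817 in sham+PSL and 240.0 in ADX+PSL at ZT22, and 373.4 and 231.1 at ZT10. *Serpina1c*, *Serpina1d* and *Serpina1e* were 7.76-fold, 8.44-fold and 8.30-fold lower at ZT22, with the reservation on shared bases given above. In the Serpina1 cluster on chromosome 12 (mm9), 7 of 11 kept probes were lower, against 1.01% of all kept probes. The probe of *Serpina1d* shared at most 5 bases in a row with the other 3 and gave the same direction, at ZT10 as well (77.7 and 33.5). This probe may still read transcripts of the other copies, which was not tested. The major urinary proteins, carriers of pheromones, went the same way: *Mup4* read 301.9 and 75.6 and *Mup18* 608.4 and 156.1 at ZT22. In the Mup region of chromosome 4 (59000000 to 62000000, mm9) lower probes were 6 of 25 kept ones, against 1.01% of all kept probes. The bases that Mup probes share were not checked. *Ahsg* (-2.003), haptoglobin (*Hp*, -1.80), *Apoc2* (-1.99) and the lipopolysaccharide-binding protein *Lbp* (-2.68) were lower too. Of 31 genes of such proteins 14 were kept, 10 were lower and none was higher, where 1.13% of all genes were lower. The median was -1.995 at ZT22 and -0.35 at ZT10. The list counts each Serpina1 and Mup gene on its own, though like probes may read the same transcripts. This list too was added after its leading genes were seen. The defining liver transcripts were at or near background: albumin (*Alb*) read 28.3 in sham+PSL and 21.0 in ADX+PSL at ZT22, and *Apoa1*, *Apob*, *Ttr* and *Fga* were below background on all 4 arrays. The part of other tissue in these values was not tested.

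**Figure D2:**
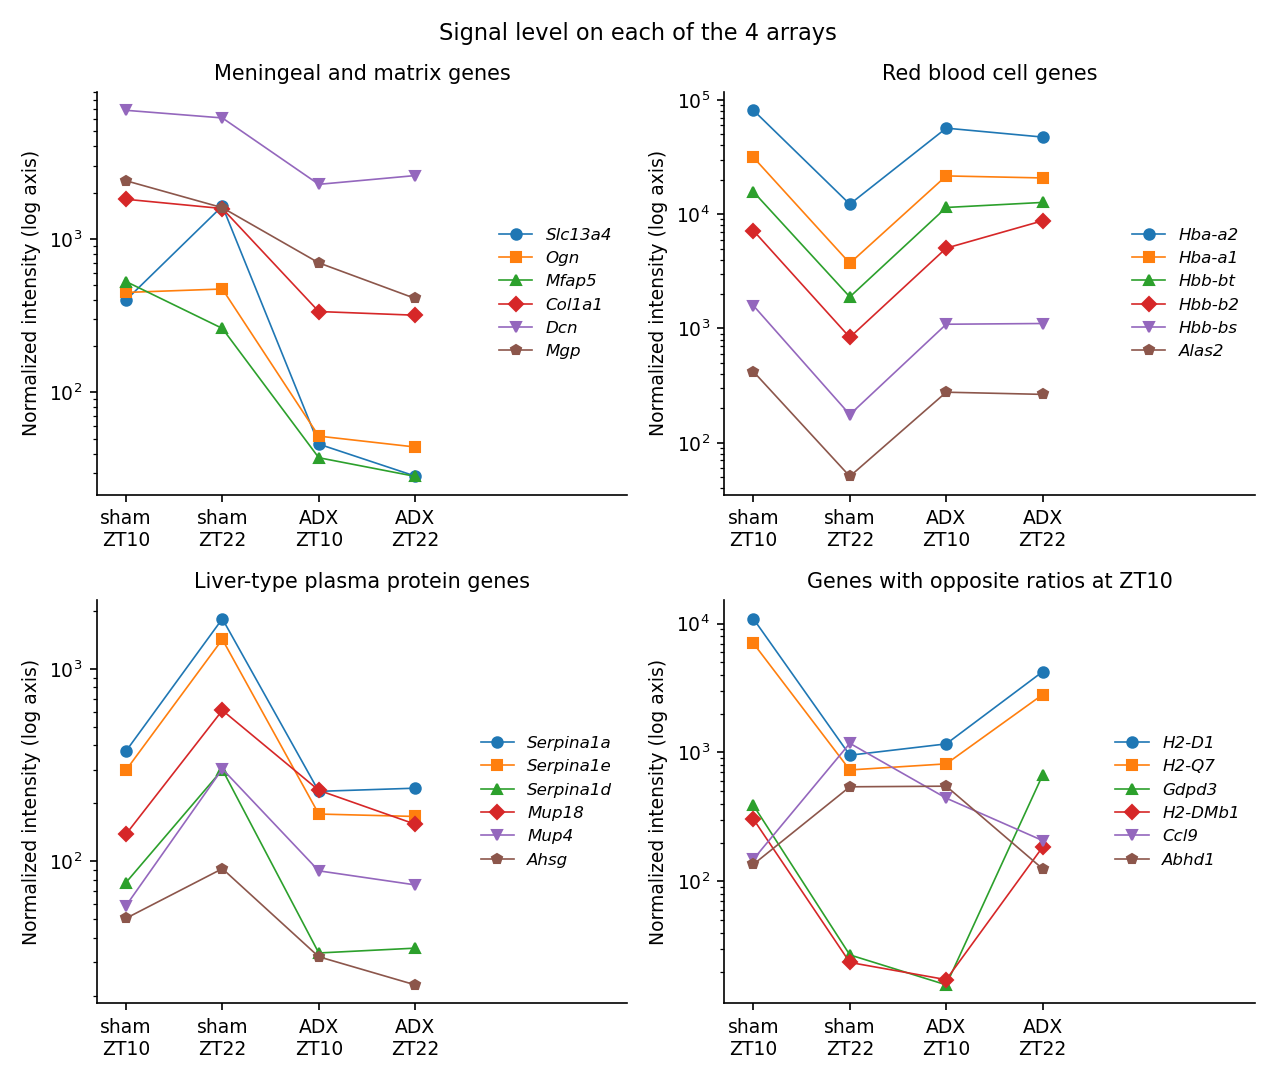
Levels of 24 genes on the 4 arrays (vertical axes, normalized intensity on a log scale; 1 point is 1 array, and the lines only join the points of a gene). Both ADX+PSL arrays were the low ones for meningeal and matrix genes, red blood cell genes were low on the sham+PSL array at ZT22 alone, plasma protein genes were high on that array, and the last panel shows genes whose ADX+PSL to sham+PSL order turned between ZT22 and ZT10.

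Red blood cell transcripts formed the largest group on the higher side. Reticulocytes keep haemoglobin mRNA, so blood left in a tissue carries these transcripts. The blood content of the slices was not measured. *Hbb-b2*, a β-globin, read 836.1 in sham+PSL and 8761 in ADX+PSL at ZT22, 10.5-fold higher, and *Hba-a2*, an α-globin, 12239 and 47304, 3.87-fold higher. *Hbb-bt*, *Hbb-bs* and *Hba-a1* were 6.71-fold, 6.27-fold and 5.57-fold higher. *Alas2*, which makes the first product of haem synthesis in erythroid cells, read 50.8 and 265.1. On all 6 of these probes the sham+PSL array at ZT22 was the low one: *Hba-a2* stood at 81120 in sham+PSL and 56627 in ADX+PSL at ZT10, both above the 2 ZT22 arrays. At ZT10 the ADX+PSL array was the lower of the pair, with a list median of -0.48 against 2.17 at ZT22. The remaining 4 of 10 kept genes (*Slc4a1*, *Hemgn*, *Tspo2* and *Bpgm*) ranged from -0.10 to 0.56, and the erythroid membrane genes *Rhag* and *Epb42* were below background on all 4 arrays.

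Interferon-stimulated genes were lower as a group but few passed the limits. They encode antiviral proteins that type I interferon switches on through the factor ISGF3, which binds interferon-stimulated response elements. Of 25 kept genes 2 were lower and none higher, and 22 had a log2 ratio below 0, where 49.4% of all kept genes did. The median was -0.59 against 0.00 for all genes. *Ifi27l2a* read 1360 in sham+PSL and 522.9 in ADX+PSL at ZT22, and 540.0 and 878.2 at ZT10. *Usp18*, a protease that removes ISG15 from its targets, read 201.8 and 99.998 at ZT22 and 117.9 and 167.4 at ZT10. On both, the sham+PSL array at ZT22 was the highest and the ZT10 pair stood in the opposite order. The same array was the highest of the 4 for 20 of the 25 genes, and the share of all genes for which it was is not given here. *Isg15* (-0.49), *Ifit1* (-0.77), *Ifit3* (-0.59) and *Oas1a* (-0.995, just short of the limit) gave smaller values. *Xaf1* went against the rest at 0.70 on its kept probe. At ZT10 the median of the list was 0.12, with none lower and *Oas2* higher (17.4 and 50.9).

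The RefSeq promoter windows of these genes, 250 bases before to 50 after the start, were searched on both strands for the interferon-stimulated response element, spelled as GAAA, any 2 bases and GAAA again. Matches may overlap one another. Of the 18 kept genes with a window 11 held it (61.1%), against 3.57% of the 12212 kept genes with a window and 3.99% of all 27025 genes with one. The 11 genes had a median log2 ratio of -0.56 and the other 7 of -0.27. A stretch each of *Isg15*, *Ifit1* and *Oas1a* is shown with a match in capitals, in GRCm38.p6 and read along the strand of the gene.
Isg15, chr4:156200850-156200909, minus strand: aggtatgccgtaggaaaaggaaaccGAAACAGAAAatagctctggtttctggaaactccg
Ifit1, chr19:34640779-34640838, plus strand: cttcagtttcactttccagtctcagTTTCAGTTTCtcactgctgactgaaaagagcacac
Oas1a, chr5:120907526-120907570, minus strand: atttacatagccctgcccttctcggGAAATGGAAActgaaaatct
A match is a description of the sequence, and binding was not measured.

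Genes of antigen presentation went both ways, and those of complement were lower in part. In the list of MHC class I genes, whose products show peptides to T cells, 2 of 15 were higher (*H2-D1* and *H2-Q7*, described with the opposite genes below), and 1 was lower, *Nlrc5*, the transactivator of class I genes, with 57.2 and 28.2. The median was -0.49: *B2m* read 10092 and 7167, *H2-K1* 4598 and 2994, and the immunoproteasome genes *Psmb8* and *Psmb9* lay at -0.71 and -0.60. Among complement genes 3 of 15 were lower, namely *C1ra* (-1.37), the C1 inhibitor *Serping1* (-1.10) and *C2* (-1.05), and 13 of 15 lay below 0 with a median of -0.58. *Serping1* and *C1ra* were also lower at ZT10 (-2.02 and -1.84), whereas *C2* stood at 0.62 there. The microglial C1q genes *C1qa*, *C1qb* and *C1qc* read -0.56, -0.54 and -0.92.

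None of 16 microglia genes passed the limits, but 14 lay below 0, where 49.4% of all kept genes did, with a median of -0.27. The sham+PSL array at ZT22 was the highest of the 4 for 13 of them, a count not set against all genes. Cathepsin S (*Ctss*) read 19277 and 11898 and the fractalkine receptor *Cx3cr1* 8244 and 5560. Outside the list, 2 genes chosen after their values were seen were high on the sham+PSL array at ZT22 alone: *Clec7a* (dectin-1) read 248.2 there and 47.2 to 89.1 elsewhere, and *Itgax* (CD11c) 337.6 against 94.8 to 110.2. Of 15 kept cytokine and chemokine genes the chemokines *Ccl4* (-1.38) and *Ccl9* were lower and none was higher. The median was 0.03, with 8 above 0. Border macrophage genes lay below 0 for 7 of 7 with none past the limits (*Mrc1*, -0.93), a median of -0.45 at ZT22 and of -1.67 at ZT10. The MHC class II genes *H2-Eb1* (-1.70) and *Cd74* (-1.06) and the lysozyme *Lyz2* (-1.88) were lower at both times. Their lists did not move together at ZT22. Of 8 kept lymphocyte and MHC class II genes 4 lay above 0, with *H2-DMb1* higher (2.97) and a median of -0.14. Of 6 kept neutrophil genes, which include *Lyz2*, 4 lay above 0, with a median of 0.12. The part of cell numbers in these values was not tested.

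Glucocorticoid-induced genes mostly lay near 0 at ZT22. Of 29 genes, all kept, 1 was lower and none higher, and 20 lay below 0, where 49.4% of all kept genes did. The median was -0.14 against 0.00 for all genes. The gene that passed was *Mt2*, with 55142 in sham+PSL and 23919 in ADX+PSL at ZT22 and 73296 and 59635 at ZT10, so the ADX+PSL array at ZT22 was the low one. *Mt1* read 74085 and 50783 on its bright probe (-0.54) and 337.4 and 164.2 on a dim one (-1.04). *Sgk1* read 1748 in sham+PSL at ZT22 and 1453 in ADX+PSL, a log2 ratio of -0.27 ± 0.20, close to its spot error. At ZT10 it read 3889 and 1836 (-1.08), and so the sham+PSL array at ZT10 stood above the other 3. *Fkbp5* (-0.15), *Tsc22d3* (-0.05), *Klf9* (-0.11), *Zbtb16* (0.05) and *Dusp1* (-0.21) lay no farther from 0 than about their spot errors. Next to *Mt2* and *Mt1* the lowest were the lipoprotein lipase inhibitor *Angptl4* (-0.73), *Sult1a1* (-0.51), *Lcn2* (-0.49), *Cebpb* (-0.48), *Cebpd* (-0.46) and *Per1* (-0.40), and *Hif3a* (0.57) and *Cdkn1a* (0.44) the largest in the other direction. At ZT10 *Hif3a* (-1.26), *Sgk1* and *Txnip* (-1.08) were lower, and *Plin4* (1.20) and *Angptl4* (1.02) higher. *Angptl4* and *Hif3a* thus stood in opposite orders at ZT22 and ZT10. The ADX+PSL array at ZT22 was the lowest of the 4 for 15 of the 29 genes, and both ADX+PSL arrays lay below both sham+PSL arrays for 4. These counts were not set against all genes.

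The full glucocorticoid response element, spelled as AGAACA, any 3 bases and TGTTCT, was searched on both strands and found in the window of 1 of 26 genes of this list with a window (3.85%), and that was the only one of the 12212 kept genes. It lay in the *Sgk1* window, 189 bases before the start. The letters read alike on both strands, so that the same site matched on each. Of all 27025 genes with a window 0.0111% held it.
Sgk1, GRCm38.p6, chr10:21993676-21993735, plus strand: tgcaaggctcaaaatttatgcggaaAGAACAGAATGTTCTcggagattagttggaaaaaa
None of the 14 meningeal genes with a window held it. An element found in 1 of 12212 kept genes could hardly appear among so few, so this count says nothing on the list. Looser spellings of the full element were not searched. Elements farther from the start were outside these windows.

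**Figure D3:**
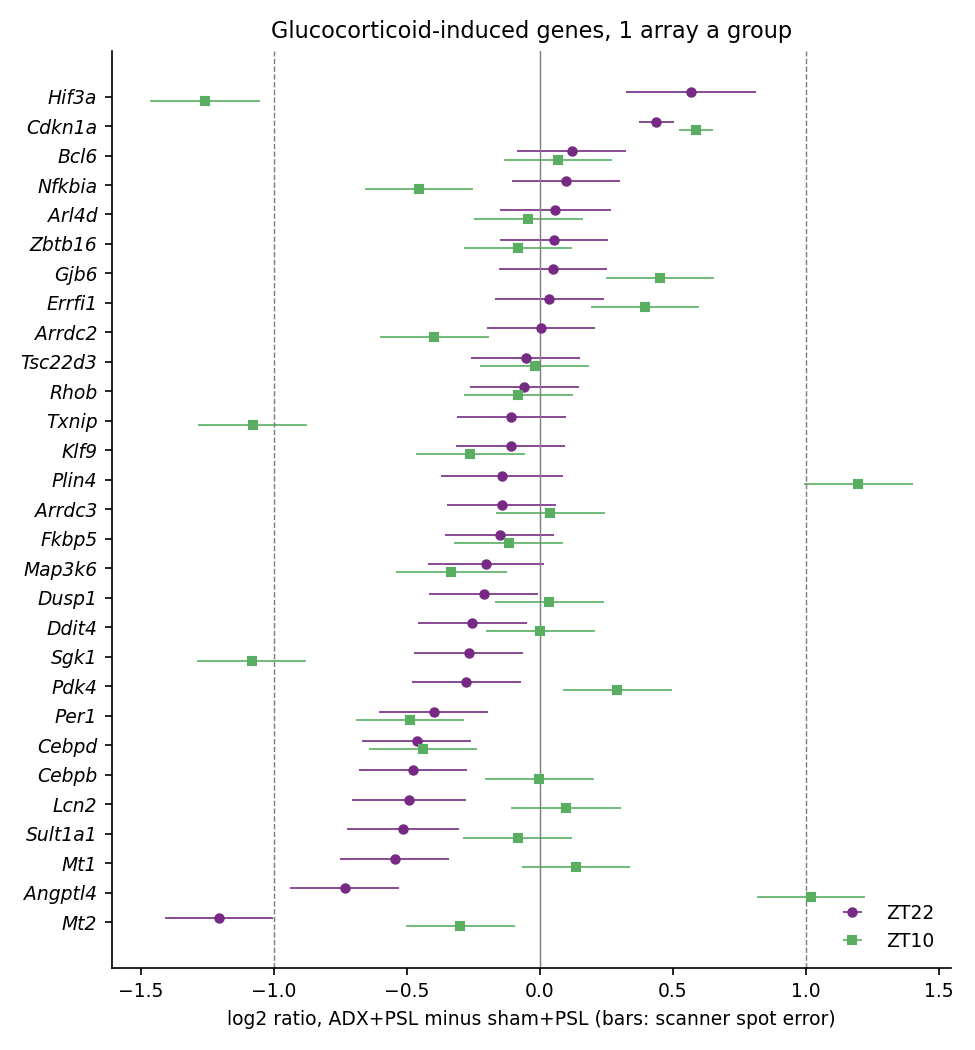
Log2 ratio of ADX+PSL over sham+PSL for the 29 glucocorticoid-induced genes at ZT22 (circles) and ZT10 (squares), ordered by the ZT22 value, with the spot error of the scanner as bars and dashed lines at ratios of 2 and 0.5. *Mt2* is the only gene past a dashed line at ZT22 (-1.20), where *Sgk1* is at -0.27. At ZT10 *Hif3a* (-1.26), *Sgk1* (-1.08) and *Txnip* (-1.08) are past the lower line, and *Plin4* (1.20) and *Angptl4* (1.02) past the upper one.

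Genes of the study's wider subject moved little at ZT22. No clock gene passed the limits (0 of 19, median -0.14): *Ciart* read 132.8 and 85.4 (-0.64) and *Arntl* (Bmal1) 507.8 and 661.6 (0.38). No receptor, chaperone or steroid enzyme of the CORT pathway passed them either (0 of 15, median -0.15). Among 23 kept genes of ATP release and P2 receptors none passed. *Panx1*, the pannexin channel, read 3969 and 3843, *P2rx4* 2123 and 2249.5, and *P2ry12* 1461 and 1469, whereas *P2ry6* was at -0.87. *P2rx7* gave 0.90 on its brightest probe and -0.24 on another. Of the immediate early genes *Ier2* was higher (36.3 and 86.4) and 15 of 16 did not pass, with *Ccn1* just short of the limit at -0.995, *Egr4* at -0.64 and *Nr4a1* at -0.59. Among nerve injury genes *Anxa1*, a glucocorticoid-regulated protein that restrains inflammation, was lower with 273.8 and 84.7, and lower at ZT10 as well (186.3 and 65.1). No other gene of the 15 passed. Neuronal, motor neuron, dorsal horn, oligodendrocyte, astrocyte, sodium pump and cholesterol synthesis genes gave no call, with medians between -0.24 and 0.07. In the list of retinoid and aldehyde enzymes 5 of 14 genes were lower and none higher, with a median of -0.68, among them *Cyp26b1* (-1.47), which degrades retinoic acid, and the retinol carrier *Rbp4* (-1.19). *Lrat*, which esterifies retinol, and *Retsat* are outside that list and were higher (1.33 and 1.96). Of 20 endothelial genes *Vwf* alone passed, with 1651 and 719.0, and the median was 0.11. *Hoxd11*, *Hoxb9*, *Hoxc11* and *Hoxb8*, which set position along the body axis, read 0.86, 0.79, 0.77 and 0.66, with ZT10 values of at most 0.19. The median of the 17 Hox genes was 0.14, none passed the limits, and 7 lay below 0, down to -0.44. A probe of *Hoxc13*, not among these values, was higher (27.7 and 101.0, 1.87), with the sham+PSL array at ZT22 as the low one.

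**Figure D4:**
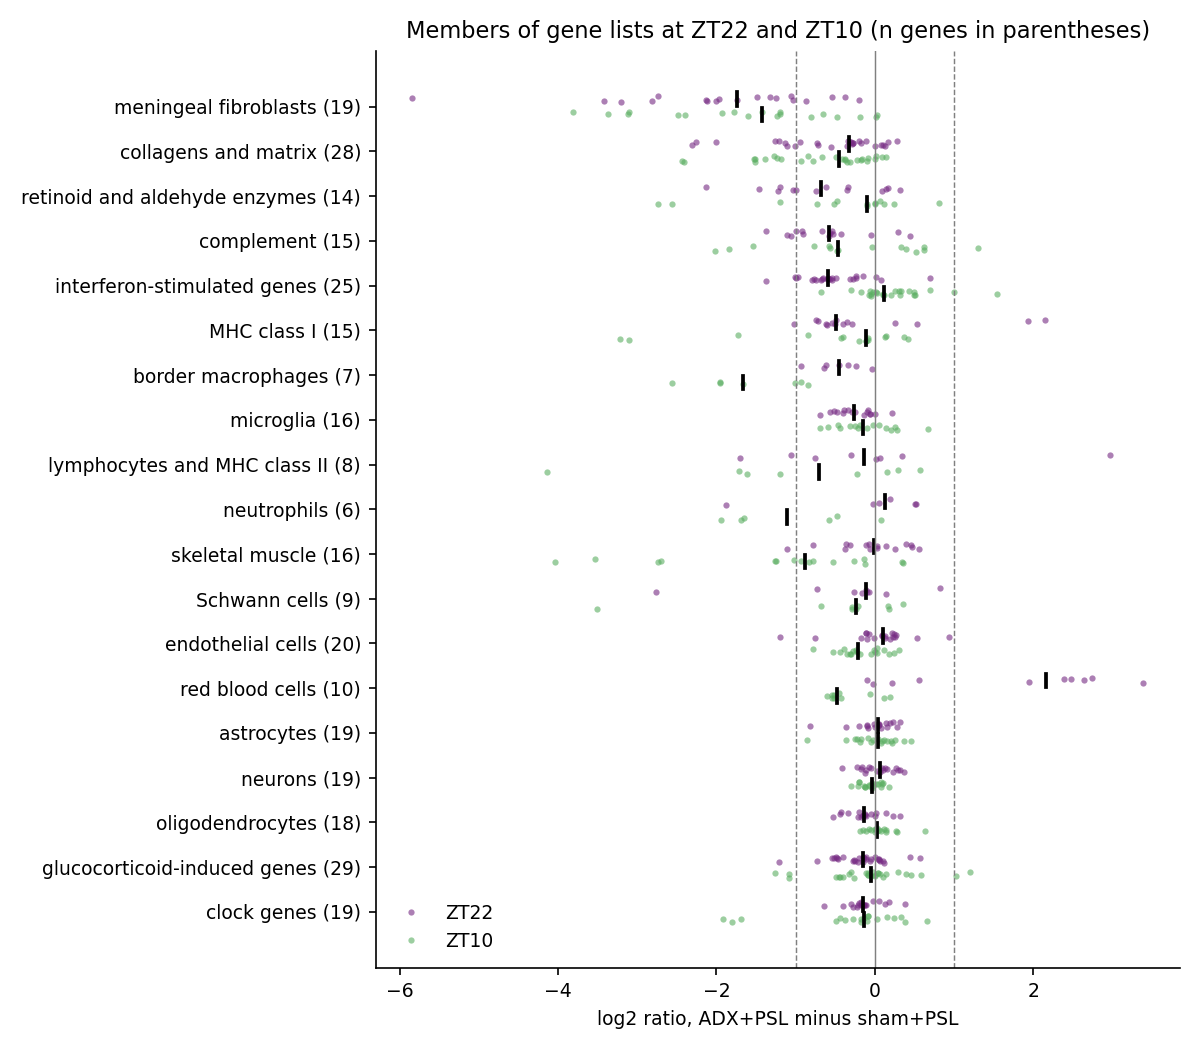
Log2 ratios of ADX+PSL over sham+PSL (horizontal axis) for the kept members of 19 gene lists at ZT22 (upper row of each list) and ZT10 (lower row). Each point is 1 gene, black bars are list medians, and dashed lines mark ratios of 2 and 0.5. Meningeal fibroblast genes lay to the left at both times (medians -1.75 and -1.42), red blood cell genes to the right at ZT22 (2.17), and interferon-stimulated genes to the left at ZT22 (-0.59) and not at ZT10 (0.12).

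The highest ratio of all genes was that of *Adck1*, a mitochondrial kinase-like protein, with 51.5 in sham+PSL and 2142 in ADX+PSL at ZT22, 41.6-fold higher (5.38 ± 0.23 spot error). The ZT10 arrays read 1059 and 1964, so the sham+PSL array at ZT22 was the low one. *Gm3219* came with 23.5 and 264.9, and it was high on both ADX+PSL arrays and near background on both sham+PSL arrays (23.6 and 371.1 at ZT10). Near it among the highest were *4933417D19Rik* (20.3 and 115.4), *Gm4354* (75.4 and 396.4), *1500015L24Rik* (40.6 and 189.7) and *Gm9876* (22.5 and 105.3), of which the last 2 were lower at ZT10. *Retsat*, a retinol saturase, read 409.2 and 1592 at ZT22 and 667.3 and 635.1 at ZT10, with the ADX+PSL array at ZT22 as the high one. *Ppp1r1c*, an inhibitor of protein phosphatase, had the same order (23.7 and 100.5 at ZT22, 23.8 and 21.8 at ZT10). *Cyp11b1*, the last enzyme of CORT synthesis in the adrenal cortex, read 21.1 and 92.1 at ZT22, and at ZT10 it was below background in sham+PSL and at 20.1 in ADX+PSL.

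Some genes turned between the time points. *Gdpd3*, a lysophospholipase D, read 26.9 in sham+PSL and 668.9 in ADX+PSL at ZT22, 24.8-fold higher, and 389.5 and 15.8 at ZT10, 24.7-fold lower. *H2-DMb1*, a chaperone of peptide loading on MHC class II, read 23.6 and 184.8 at ZT22 and 304.2 and 17.3 at ZT10. *H2-D1* read 952.5 and 4232 at ZT22 and 10881 and 1166 at ZT10. *H2-Q7* had the same order of arrays, with 732.2, 2811, 7024 and 816.4. On all 4 of these genes the sham+PSL array at ZT10 and the ADX+PSL array at ZT22 were the high ones. *H2-Q6* followed with a smaller ZT22 ratio (0.53), while *H2-K1*, *H2-T23* and *H2-Q4* (-0.62, -0.51 and 0.26) did not. In the histocompatibility region of chromosome 17 (33000000 to 38000000, mm9) 224 probes were kept, of which 5 were higher and 5 lower (2.23% each, against 0.783% and 1.01% of all probes), among the lower ones *H2-Eb1*, *C2* and *Tnxb*. In the other direction *Ccl9*, a chemokine for macrophages, read 1178 and 207.6 at ZT22 and 148.7 and 442.5 at ZT10, and *Abhd1* 542.0 and 125.3 at ZT22 and 135.8 and 548.0 at ZT10.

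The 2 ZT10 arrays share no sample with the ZT22 arrays and set ADX+PSL against sham+PSL at another time of day. They are no replicate: with 1 array a side, the operation, the mice and the dissection cannot be told apart at either time. Of the 249 lower probes that were above background on all 4 arrays, 70 (28.1%) also passed the limits downward at ZT10, where 1.12% of all such probes did, and 10 passed them upward. Of the 185 higher probes 12 (6.49%) also passed upward at ZT10, where 0.624% of all such probes did, and 11 (5.95%) passed downward. The shared lower probes made up 25.1% of the 279 lower probes at ZT10, and the shared higher ones 7.69% of 156. Among the 70 shared lower probes were those of meningeal and matrix genes (*Slc13a4*, *Ogn*, *Mfap5*, *Col1a1*, *Col3a1*, *Dcn*, *Mgp*, *Islr*, *Fmod*, *Wnt4*, *Igfbp6*). Others belonged to plasma protein genes (*Lbp*, *Serpina1d*), MHC class II genes (*H2-Eb1*, *Cd74*, *H2-Ab1*) and complement genes (*C1ra*, *Serping1*). *Prx*, *Moxd1*, *Anxa1*, *Nupr1*, *Lyz2* and *Opn4* were also among the 70. *Igfbp6*, a binding protein of insulin-like growth factor, read 2155 and 451.7 at ZT22 and 1253 and 467.7 at ZT10. *Igf1* itself depended on the probe: its brightest read 652.7 and 567.9 at ZT22 (-0.20), while 3 dimmer probes were lower with -1.39 to -1.53, and 1 of these was lower at ZT10 too.

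The remaining calls were sorted by the array that stood apart. For 65 of the 249 lower and 26 of the 185 higher probes the sham+PSL array at ZT22 differed at least 2-fold from each of the other 3, which lay within 2-fold of each other. For 12 lower and 34 higher probes the ADX+PSL array at ZT22 did. No such order held for 92 lower (36.9%) and 102 higher probes (55.1%), the largest share in each direction. The first set held *Serpina1a*, *Serpina1c*, *Serpina1e*, *Mup4* and *Mup18*, *Fn1*, *Alkal2*, *Slc22a6*, *Clec7a*, *Thbd* and the haemoglobins, and the second *Mt2* and *H19* on the lower side and *Retsat* and *Ppp1r1c* on the higher. Over the 25012 probes above background on all 4 arrays the ZT22 and ZT10 log2 ratios had a Pearson r of 0.18 and a Spearman rho of 0.13. The points are probes of the same arrays and are no replicates.

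**Figure D5:**
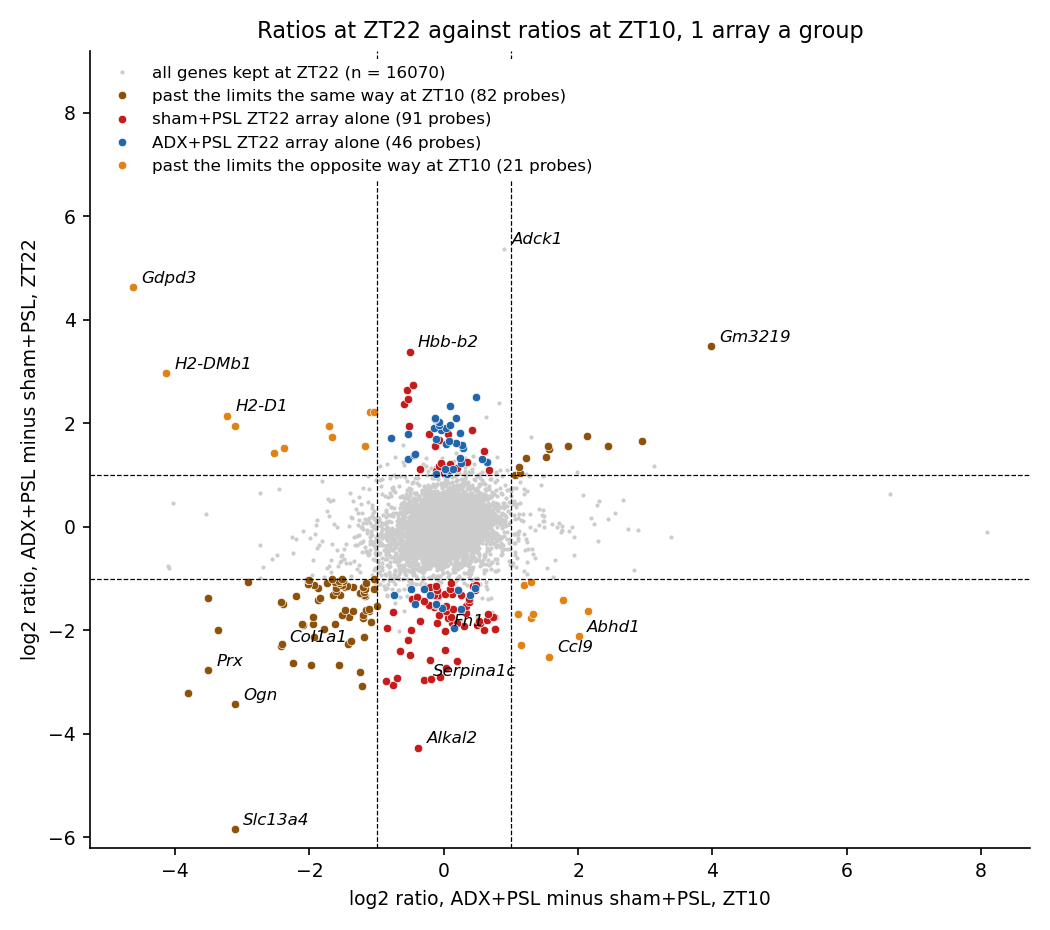
Log2 ratio of ADX+PSL over sham+PSL at ZT22 (vertical axis) against that at ZT10 (horizontal axis) for the 16070 genes kept at ZT22 in grey, also where dim at ZT10, with the called probes coloured by the array that stood apart and dashed lines at ratios of 2 and 0.5. Meningeal genes such as *Slc13a4* and *Ogn* lie at the lower left, haemoglobins and *Serpina1c* within 1 of 0 on the horizontal axis, and *Gdpd3*, *H2-DMb1* and *H2-D1* at the upper left.

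Genes read on only 1 of the 2 ZT22 arrays gave bounds. In sham+PSL alone 680 genes were well above background, 129 with a bound of at least 2-fold and 39 of at least 4-fold, and in ADX+PSL alone 252, 97 and 20. The 2 arrays did not detect dim probes equally well. On the ADX+PSL array a probe had to be brighter to be called, with a lowest called level of 22.2 against 18.4. Fewer of its probes were called, 65.1% against 66.9% of all probes. How far this accounts for the unequal counts was not tested. The largest lower bounds beside those of arachnoid genes were *1500004A13Rik* (29.5-fold, and 770.0 in sham+PSL against 4.47 in ADX+PSL at ZT10) and *A230001M10Rik* (19.4-fold). The largest upward ones were *Tescl* (8.91-fold), *Gm5589* (8.64-fold), *Lefty1*, an inhibitor of Nodal signalling (7.68-fold), *Gm8220* (6.94-fold) and *Foxh1*, a Nodal effector (6.59-fold). *Lefty1* read 81.8 in sham+PSL at ZT10 and was below background in ADX+PSL there, the opposite order to ZT22.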

How the data were processed

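Lumbar spinal RNA of 4 conditions was hybridized to 1 Agilent 1-colour array each, all on 1 slide. The authors deposited the scanner intensity of each spot with its error and flags, and a table of linear intensity values after quantile normalization, with 1 value per probe and array. Per the labels the software was Feature Extraction 9.5.1.1, whereas the file headers name 10.7.1.1. The deposited table was log2-transformed and the ratio was the ADX+PSL minus the sham+PSL value at ZT22 per probe, kept where at least 0.5 of a probe's spots were flagged well above background on both arrays. Calls needed a ratio of 2 and a Z-score of 2 over kept probes. Symbols came from RefSeq (GRCm38.p6) by accession for 26862 probes and from the file for 5539, and 7 probes had several symbols and 7028 none. Python 3.11.15, numpy 2.4.6, pandas 2.3.3 and matplotlib 3.10.9 were used, with limma 3.58.1 in R 4.3.3 for the alternatives. The calling code was checked on a simulated pair of arrays with the same noise for all probes, which says nothing on the reliability of the calls made here. Members, gene lists and alternatives were chosen with earlier results of these data known, and the lists of liver-type plasma proteins and of arachnoid and mesothelial genes after their values were seen. Genes to follow were the 15 highest and 15 lowest ratios, the 5 largest bounds each way, the 8 largest same-way and 8 opposite at ZT10, the 4 largest of each list with any past the limits, the glucocorticoid list and *Sgk1*. Genes outside this rule, such as *Clec7a*, *Itgax* and *Retsat*, were chosen after their values were seen. Probes of *Cirbp*, *Cxcl12*, *Mobp*, *P2rx7* and *Igf1* differed by over 2-fold.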

Additional observations from a re-analysis of the deposited data

Results flagged for a closer look

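For 21 probes the ADX+PSL to sham+PSL order turned between the time points, with both ratios past the limits. The 8 genes given here, each read from its brightest probe, are those whose weaker log2 ratio was the largest in size. They need not have the largest difference between the time points. The differences rest on 1 array a group and were not tested. The log2 ratio at ZT22 minus that at ZT10 was 9.26 for *Gdpd3*, 7.11 for *H2-DMb1*, 5.37 for *H2-D1*, 5.05 for *H2-Q7* and 3.91 for *Gm765*, a predicted gene. It was -4.13 for *Abhd1*, -4.08 for *Ccl9* and -3.78 for *Cyp2j7*, an epoxygenase of arachidonic acid. *Cyp2j7* read 119.3 in sham+PSL and 38.5 in ADX+PSL at ZT22, and 30.7 and 136.2 at ZT10.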

How the results depend on the processing

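Normexp background correction changed the counts of probes higher at ZT22 and probes lower at ZT22 to 52 and 98, with medians of -1.49 for meningeal and 1.76 for red blood cell genes, and the mean signal without background correction 50 and 92, with -1.47 and 1.71. Keeping probes above background on at least 1 of the 2 arrays gave 426 and 561, with -2.001 for meningeal genes, and no filter 924 and 1088, with -1.98, 1.32 and a Pearson r of 0.081 between the time points. A ratio of 1.5 alone gave 779 and 809, a ratio of 3 alone 54 and 89, and Z-scores over all probes 111 and 146. The deposited table was set against quantile normalization of the ZT22 pair, a 75th percentile shift and no normalization, which moved the median of all probes to 0.12. Of the 1348 values of 193 named genes under the alternatives 140 moved by more than 1 spot error. No called gene of these changed sign, and 7 values of uncalled genes did. Of the 74 called genes 20 fell short of 2-fold with normexp, 21 with the mean signal, 12 without normalization, 4 of 71 without outlier spots and 1 with quantile normalization of the processed signal over 4 arrays. No paired analysis was possible because each group had 1 array, leaving out an array leaves no comparison, and a slide block could not be fitted with 1 slide. The number of arrays, and for dim probes the signal over background, limits every value.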
